A study of Mus musculus with 12 samples.

Results

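The RNAs described here were 8 long noncoding RNAs of purified mouse brain myelin, listed by gene symbol with no threshold on their values: *Malat1*, *Neat1*, *Meg3*, *Miat*, *Rian*, *Snhg11*, *Gas5* and *Kcnq1ot1*. All 8 were among the 21937 genes of the deposited table and passed the filter that left 14634 genes for testing. Myelin, the membrane that oligodendrocytes wrap around axons, was enriched from brains of male wild-type c57Bl6/N mice by sucrose density centrifugation. RNA was sequenced from 12 preparations, 3 for each of the ages P18 (postnatal day 18), P75, 6 months (6mo) and 24 months (24mo). Age is the only difference between the mice that the sources name, with no transgene and no treatment. The library names carry consecutive numbers within each age. Whether the ages were prepared or sequenced together is not given, so age and such a set cannot be told apart. At 6 months each library came from an individual mouse. For the other ages the labels number the replicates without naming animals, so p-values there measure the spread between libraries.

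Long noncoding RNAs are transcripts that are processed much like mRNAs but are not thought to act through a protein. Some stay in the nucleus and organise it: *Malat1* collects in nuclear speckles, where splicing factors are stored, and *Neat1* is the scaffold on which paraspeckles are built. Others are expressed from the maternal or the paternal chromosome only, and a further group carries small nucleolar RNAs (snoRNAs), which guide the modification of ribosomal and other RNA, in its introns. Myelin sheaths hold no nuclei, so RNAs known as nuclear are of interest in a fraction that is defined by its density and can hold fragments of cell bodies.

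The unit throughout is the normalized read count: reads on a gene divided by a size factor of the library. The libraries held 20299052 to 27214385 reads on genes, 1 read was worth a normalized read count of 0.812 to 1.19, and *Mbp*, which encodes myelin basic protein, took 4.76% to 20.8% of the reads. Ages were compared with limma on log2(normalized read count + 1), and a gene is said to have risen or fallen at an adjusted p under 0.1, taken over all genes tested. The 8 long noncoding RNAs together took 0.155% to 0.279%. Per kilobase of exon, *Mbp* had 172479 and the neuronal *Snap25* 13007 at 6 months, so the fraction was led by its defining transcript and neuronal RNA was present as well.

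*Malat1* and *Neat1* are neighbours. In the GENCODE annotation of NCBIM37 (mm9) *Malat1* lies on the minus strand of chromosome 19 from 5795690 to 5802671, as 1 exon that Gm20417 overlaps on the other strand, and *Neat1* on the same strand from 5824708 to 5845478, as 1 exon of 20771 bases. The mature 3′ ends of *Malat1* and of the long form of *Neat1*, of 20771 bases, are made alike. An enzyme that otherwise trims tRNAs cuts the transcript, and a triple helix of U-rich and A-rich stretches protects the end in place of a poly(A) tail. The sequences below are shown because they are what the pair has in common. They are read from NCBIM37, 5′ to 3′ on the minus strand, at chr19:5795901-5796075 for *Malat1* and chr19:5824628-5824807 for *Neat1*. The capitals mark the 3 runs of at least 12 bases that the ends share, TTTCTTTTCCTGA, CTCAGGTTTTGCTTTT and AAAAAGCAAAAG, and then AGTCCCTGC, the longest run shared in the next 60 bases.
Malat1 3′ end: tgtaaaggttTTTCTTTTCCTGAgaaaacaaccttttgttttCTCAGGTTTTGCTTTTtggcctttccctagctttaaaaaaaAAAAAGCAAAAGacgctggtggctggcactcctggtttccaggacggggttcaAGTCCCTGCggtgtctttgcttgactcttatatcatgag
Neat1 3′ end: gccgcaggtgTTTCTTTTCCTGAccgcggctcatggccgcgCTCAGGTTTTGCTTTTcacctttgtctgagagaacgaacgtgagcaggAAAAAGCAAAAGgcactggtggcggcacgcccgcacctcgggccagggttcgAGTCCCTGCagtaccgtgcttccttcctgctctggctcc

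Each of the 4 stretches was found once in each gene and the 100 bases after its annotated end, searched on the transcribed strand. The first pair stood 19 bases apart in *Malat1* and 18 in *Neat1*, and the A-rich stretch followed after 25 and 32 bases. The annotated end of *Neat1* fell within 1 base of the end of the A-rich stretch, and that of *Malat1* 291 bases beyond it, so AGTCCCTGC lies past the annotated end of *Neat1*. Whether RNA without a poly(A) tail was kept in the libraries is not given in the sources used here. That choice sets how well these ends, *Malat1* and the long form of *Neat1* could be sampled.

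**Figure D1:**
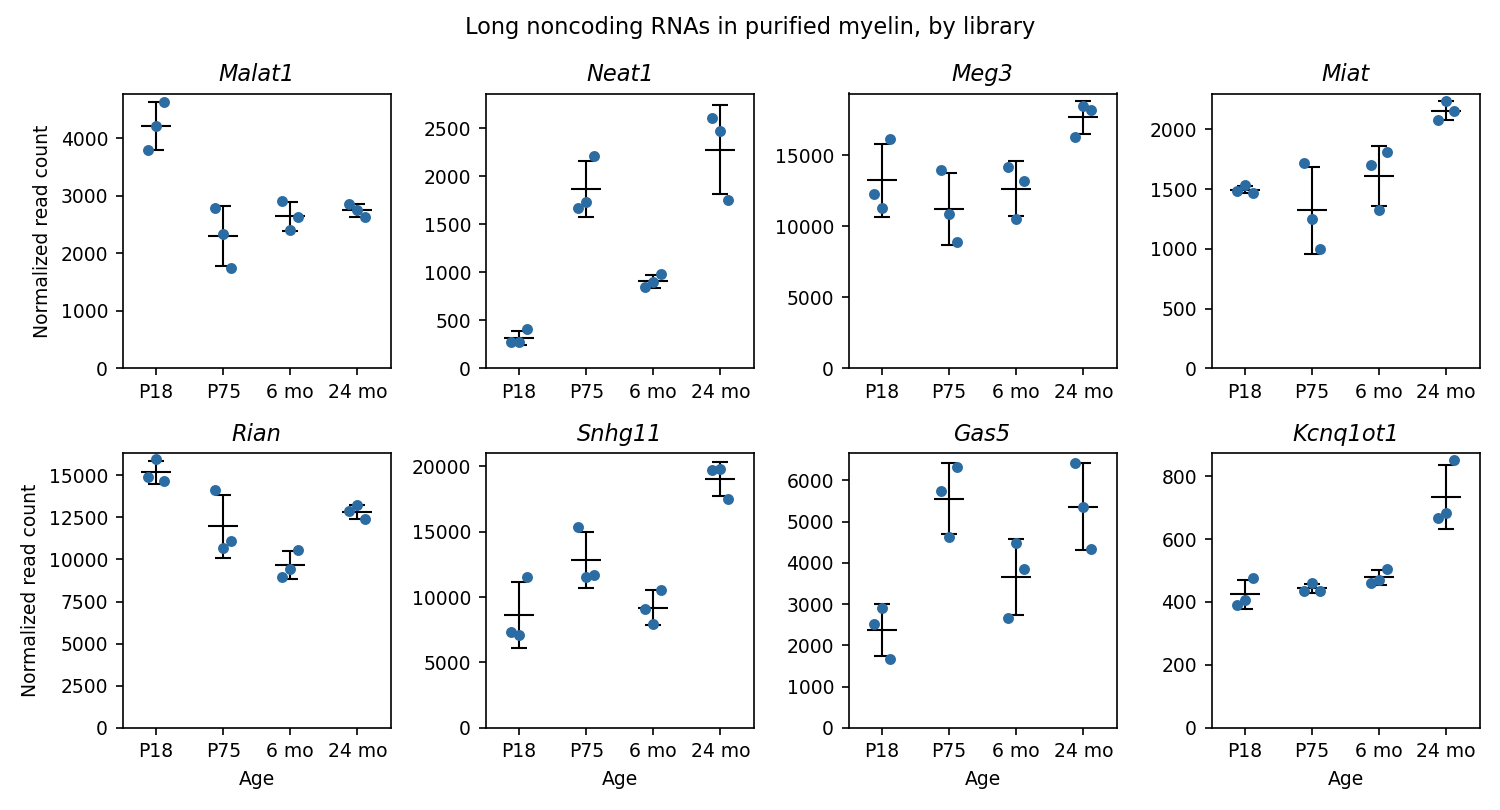
Normalized read count (vertical axes, linear, each from 0) of the 8 long noncoding RNAs at the 4 ages; points are libraries, horizontal marks the mean and bars the SD of 3 libraries. *Neat1* was lowest at P18 with 276 to 405, *Malat1* was highest there with 3789 to 4628, and *Meg3*, *Miat*, *Snhg11* and *Kcnq1ot1* had their 3 highest libraries at 24 months.

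*Malat1*, the nuclear speckle RNA, fell after P18 and then did not move detectably. Its normalized read counts in replicates 1, 2 and 3 were 3789, 4217 and 4628 at P18 and 2786, 2338 and 1747 at P75. At 6 months they were 2903, 2399 and 2633, and at 24 months 2853, 2747 and 2634. All P18 libraries were above all later ones, and the 3 later ages overlapped each other. The mean went from 4212 ± 419.5 (SD, n = 3) at P18 to 2290.3 ± 521 at P75, a log2 change of -0.90 ± 0.13 (SE, limma, adjusted p = 7.3e-05), and was 2745 ± 109.8 at 24 months, a log2 change of -0.61 from P18 (adjusted p = 7.46e-04). From P75 to 6 months the log2 difference was 0.23 (adjusted p = 0.157), which passed without P75 replicate 1 (0.38, adjusted p = 0.0198), and from 6 to 24 months it was 0.06 (adjusted p = 0.804).

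*Neat1*, the paraspeckle scaffold, showed the widest range of the 8. It had 276, 276 and 405 at P18, then 1669, 1737 and 2209 at P75. It had 843, 899 and 981 at 6 months and 2605, 2477 and 1749 at 24 months. The libraries of consecutive ages did not overlap in any of the 3 steps, whereas P75 and 24 months did overlap. *Neat1* rose 5.91-fold from P18 to P75 (log2 change 2.56 ± 0.16 SE, adjusted p = 4.55e-08), fell by 1.03 on the log2 scale from P75 to 6 months (adjusted p = 6.67e-05) and rose 2.47-fold from 6 to 24 months (log2 change 1.31, adjusted p = 2.23e-04). From P18 to 24 months it rose 7.14-fold (log2 change 2.84, adjusted p = 7.71e-10). All 4 calls held under each alternative and without each library in turn, with log2 changes of 2.44 to 2.75, -1.11 to -0.91, 1.199 to 1.49 and 2.73 to 3.02.

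A ratio within a library does not depend on the size factors. The *Neat1* to *Malat1* ratio was 0.0656 to 0.0877 at P18, 0.599 to 1.26 at P75, 0.291 to 0.375 at 6 months and 0.664 to 0.913 at 24 months. P18 was lowest and 6 months next, each apart from the other ages, whereas P75 and 24 months overlapped. The means differed by 3.46 on the log2 scale between the lowest and the highest age (exact permutation test over 15400 divisions of the libraries, F statistic, called at p under 0.05, p = 0.000649, 0.0013 adjusted over 2 ratios). The smallest p this design allows is 6.49e-05.

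**Figure D2:**
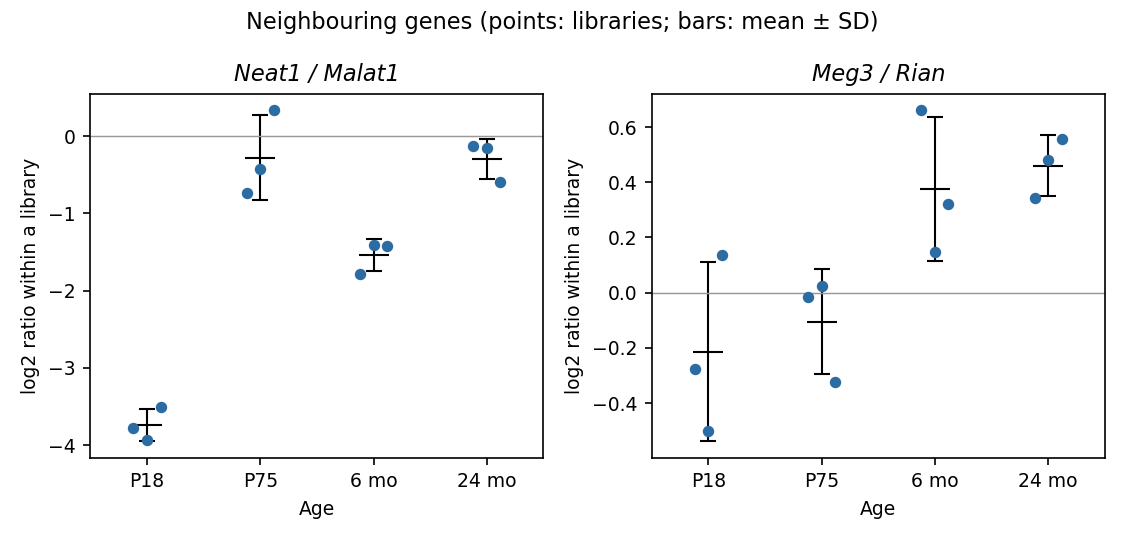
Log2 ratio of neighbouring genes within a library (vertical axes) at the 4 ages, *Neat1* to *Malat1* on the left and *Meg3* to *Rian* on the right; points are libraries, marks and bars the mean ± SD of 3. The left ratio was lowest at P18 with a mean of -3.74 and -1.54 at 6 months, while the right ratio had means of -0.21 and -0.11 at P18 and P75 and 0.38 and 0.46 at 6 and 24 months.

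Genes for proteins of the same nuclear bodies were set beside the pair. Of 18 genes for paraspeckle proteins, 3 rose and 6 fell from P18 to P75 (4 and 3 when libraries were rescaled to the same total), 6 rose and 4 fell to 6 months, 0 rose and 4 fell to 24 months. *Nono*, which encodes a core paraspeckle protein, rose from P75 to 6 months (log2 change 0.59, adjusted p = 1.11e-05) and fell to 24 months (-0.44, adjusted p = 0.00198), the opposite signs to *Neat1* in both steps. *Sfpq*, its partner, fell from P18 to P75 (-0.56, adjusted p = 0.00419) with no call in the later steps. Of 17 tested genes for nuclear speckle proteins, 9 rose and 2 fell from P18 to P75, 4 rose and 8 fell to 6 months, and 6 rose and 1 fell to 24 months (3 and 1 after that rescaling, and 11 and 0 in the step from P18). *Son*, a speckle scaffold protein, rose from P18 to P75 (0.78, adjusted p = 5.44e-06), while *Malat1* fell.

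*Malat1* and *Neat1* bear on carry-over of nuclei, so markers of the cells whose nuclei could be present are given here. In the 3 consecutive steps 48.8%, 60.6% and 29.3% of all genes were called. The shares were 77.8%, 100% and 55.6% for oligodendrocyte transcription factors and 62.5%, 87.5% and 37.5% for precursor markers. For myelin markers they were 80%, 30% and 30%. Oligodendrocyte transcription factors, such as *Olig1*, *Olig2* and *Sox10*, fell in 7 of 9 tested genes from P18 to P75 (5 after rescaling to the same total). To 6 months 3 rose and 6 fell, and to 24 months 1 rose and 4 fell (1 and 3 after that rescaling). Their summed level was 21109 to 21569 at P18, 10922 to 11998 at P75, then 8439 to 9686 and 7794 to 8984. The mean of *Olig2* was 1738 at P18 and 699 at P75. Their sum and *Malat1* were both highest at P18, whereas *Neat1* was lowest there. Precursor and myelin markers also had their highest sums at P18, so that age does not single out the transcription factors. The summed means were 3421 at P18 and 1761 to 2211 later for precursor markers. For myelin markers they were 4.31e+06 at P18 and 1.48e+06 to 1.75e+06 later. Precursor markers fell in 5 of 8 from P18 to P75, rose in 6 and fell in 1 to 6 months, and fell in 3 to 24 months. Myelin markers fell in 8 of 10 from P18 to P75, rose in 2 and fell in 1 to 6 months, and fell in 3 to 24 months. These are transcript levels, and RNA of nuclei, cytoplasm and myelin cannot be told apart in them. The part of nuclear carry-over in the levels of *Malat1* and *Neat1* was not tested.

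Microglia markers rose with age. They rose in 12 of 15 from P18 to P75, in 6 with 2 falling to 6 months and in 10 to 24 months, and their summed level was 8064 to 9311, 12375 to 13884, 14041 to 15974 and 22200 to 27697 at the 4 ages. Neuron markers rose in 5 and fell in 5 of 17 from P18 to P75 (7 and 3 after rescaling to the same total), rose in 13 and fell in 3 to 6 months, and rose in 1 and fell in 5 to 24 months. Of 12 astrocyte markers 3 rose and 2 fell (5 and 1 after that rescaling), then 2 rose and 2 fell, then 2 rose and 2 fell. Of 12 endothelial markers 2 rose and 1 fell, then 4 rose and 2 fell, then 3 rose and 0 fell. Beside 48.8%, 60.6% and 29.3% of all genes in the 3 steps, 80%, 53.3% and 66.7% of microglia markers were called. The shares were 58.8%, 94.1% and 35.3% for neuron markers and 41.7%, 33.3% and 33.3% for astrocyte markers. For endothelial markers they were 25%, 50% and 25%. All of these listed markers that the deposited table holds passed the filter, a mean of at least 10, so by construction none was at 0 in all libraries. In bulk RNA, more cells of a type and more RNA per cell cannot be told apart, and the part of these cell types in the changes of the long noncoding RNAs was not tested.

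*Meg3*, *Rian* and *Mirg* are maternally expressed RNAs of the imprinted *Dlk1*-*Dio3* locus, whose paternal chromosome expresses *Dlk1*, *Rtl1* and *Dio3*. On NCBIM37 *Meg3* spans chromosome 12 from 110779211 to 110809936 on the plus strand, with 8 merged exons and 2 miRNAs inside the span, and its end is overlapped on the other strand by Gm17639. *Rian* follows from 110842155 to 110899919 on the same strand, with 22 merged exons, 13 snoRNAs and 4 miRNAs inside the span. Whether reads were counted by strand is not given in the sources used here, so reads of *Meg3* and of its antisense neighbour cannot be told apart. A snoRNA of *Rian*, at chr12:110874222-110874294 (plus strand, NCBIM37), shows the class it carries, with the C box TGATGA and the D box CTGA in capitals.
SNORD113 in Rian: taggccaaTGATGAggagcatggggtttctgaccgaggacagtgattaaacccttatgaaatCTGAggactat

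*Meg3* rose late. It had 12299, 11279.8 and 16116 at P18, 13944, 10888 and 8871 at P75, 14213, 10480.1 and 13212 at 6 months, and 16321, 18466 and 18228 at 24 months. The 3 younger ages overlapped, and every 24-month library was above every younger one, by a narrow margin over P18 replicate 3. The log2 change was 0.49 ± 0.16 (SE) from 6 to 24 months (limma, adjusted p = 0.0449) and 0.43 from P18 to 24 months (adjusted p = 0.0302). The former was lost without 6mo replicate 2 (adjusted p = 0.184), 24mo replicate 2 (0.134) or 24mo replicate 3 (0.104) and with libraries rescaled to the same total (0.108), and the latter without P18 replicate 2 (0.128). From P18 to P75 and from P75 to 6 months the log2 differences were -0.24 and 0.18 (adjusted p = 0.250 and 0.363), and both passed without P75 replicate 1, at -0.41 (0.0620) and 0.35 (0.0881).

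*Rian* followed another course. It had 14913, 15964 and 14644 at P18, 14103, 10711 and 11099 at P75, 8985.5, 9457 and 10579 at 6 months, and 12879, 13236 and 12383.5 at 24 months. P18 was highest and 6 months lowest, with no overlap in any of the 3 consecutive steps, while the P75 libraries reached across those of 24 months. It fell by 0.35 from P18 to P75 (adjusted p = 0.0184) and by 0.30 to 6 months (adjusted p = 0.0322), then rose by 0.41 ± 0.11 (SE) to 24 months (adjusted p = 0.0187), all on the log2 scale. The first fall was lost with rescaling to the same total (adjusted p = 0.160) and the second without P75 replicate 1 (0.186) or 6mo replicate 1 (0.113). The fall of 0.24 from P18 to 24 months (adjusted p = 0.0691) was lost with that rescaling (0.267) and without P18 replicate 1 or 2 or any 24mo library (0.101 to 0.176).

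Within a library, the *Meg3* to *Rian* ratio was 0.707 to 1.10 at P18, 0.799 to 1.02 at P75, 1.11 to 1.58 at 6 months and 1.27 to 1.47 at 24 months. All 6- and 24-month libraries were above all P18 and P75 libraries. The largest difference between age means was 0.67 on the log2 scale (exact permutation test, p = 0.0248 raw and adjusted over 2 ratios). In the same exact test the call was lost with the replicate number as a block (p = 0.0747) and without P18 replicate 1 (0.055), 24mo replicate 2 (0.0508) or 24mo replicate 3 (0.0516). The other tested genes of the locus did not share 1 course. *Mirg* rose from P18 to P75 (limma, log2 change 0.33, adjusted p = 0.0454), fell to 6 months (-0.37, adjusted p = 0.021) and rose to 24 months (1.10, adjusted p = 1.63e-04). *Dlk1* rose from P75 to 6 months (0.93, adjusted p = 5.46e-06), *Rtl1* fell from P18 to P75 (-1.10, adjusted p = 0.00288) and *Dio3* passed in no comparison. *Rtl1* and *Dio3* were low, with age means of 16.5 to 37.2 and 17.9 to 31.1. Of the 6 genes, 1 rose and 2 fell in each of the first steps (2 and 1 from P18 to P75 after rescaling to the same total), and 3 rose and 0 fell from 6 to 24 months.

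*Kcnq1ot1*, the paternally expressed antisense RNA that silences the imprinted genes around *Kcnq1* in cis, is not in the annotation used. The RefSeq window around its start matched chromosome 7 of NCBIM37 once, which placed the start at base 150482452 on the minus strand, in an intron of *Kcnq1*, a plus-strand gene from 150293159 to 150612955. The gene had 389.8, 408 and 477 at P18, 435, 459 and 436 at P75, 459.8, 470.4 and 505 at 6 months, and 667, 682 and 849.8 at 24 months. The younger ages lay close together, and every 24-month library was above all of them. It rose 1.52-fold from 6 to 24 months (log2 change 0.61 ± 0.11 SE, adjusted p = 0.00199) and 1.72-fold from P18 (0.78, adjusted p = 8.45e-06), while the earlier differences were 0.07 and 0.11 (adjusted p = 0.652 and 0.400). *Kcnq1* itself had 1.85 to 6.81 in the 12 libraries. Of the 7 tested genes of the locus, 2 rose and 2 fell from P18 to P75, 1 rose and 1 fell to 6 months, and 3 rose and 0 fell to 24 months. *Cdkn1c*, a cell cycle inhibitor silenced with that locus, fell from P18 to P75 (-1.01, adjusted p = 2.22e-05) and from P75 to 6 months (-0.43, adjusted p = 0.0110) and did not pass afterwards (0.03, adjusted p = 0.914). *Slc22a18*, of the same locus, went the other way, with low means of 5.18 at P18 and 43.3 at 24 months. It rose from P18 to P75 (1.625, adjusted p = 2.49e-04) and from 6 to 24 months (0.94, adjusted p = 0.0279).

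*Miat*, also named Gomafu, is a nuclear RNA of neural cells that binds splicing factors. It lies on chromosome 5 from 112642248 to 112657968 on the minus strand of NCBIM37, with 7 exons. It had 1485, 1531 and 1469 at P18, 1718, 1252 and 1002 at P75, 1700.4, 1329 and 1808 at 6 months, and 2078, 2236 and 2157 at 24 months. The 24-month libraries were above all others, and the P75 libraries spread from below to above those of P18. It rose from P18 to 24 months (log2 change 0.53 ± 0.15 SE, adjusted p = 0.00531) and from 6 to 24 months (0.43, adjusted p = 0.0509). The latter was lost without 6mo replicate 2 (0.216) or 24mo replicate 2 (0.141) and with rescaling to the same total (0.103). The call from P75 to 6 months (0.31, adjusted p = 0.0910) was lost in edgeR (0.116), in DESeq2 (0.124) and without P75 replicate 3 (0.12, adjusted p = 0.467), and further losses, at 0.1004 to 0.285, came without P18 or P75 replicate 2, 6mo replicate 1 or 3 or any 24mo library, without the filter, in a fit of these 2 ages and with that rescaling. Without P75 replicate 1, *Miat* was also lower at P75 than at P18 (-0.42, adjusted p = 0.0167; -0.21, adjusted p = 0.271, with it). Of 4 genes for QKI and the splicing factors that bind *Miat*, 1 rose and 1 fell in each of the first steps, and 1 rose and 0 fell from 6 to 24 months. *Qk* fell by 0.47 from P18 to 24 months (adjusted p = 0.0254).

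The snoRNA hosts among the 8 were *Gas5*, *Snhg11* and *Rian*. *Gas5* spans chromosome 1 from 162964553 to 162968670 on the plus strand of NCBIM37, with 9 snoRNAs inside, and its start is overlapped on the other strand by *Zbtb37*. *Snhg11* spans chromosome 2 from 158201374 to 158211881 on the plus strand, with 4 merged exons and 2 snoRNAs, and the annotation types it as protein coding. Many snoRNA hosts begin, like ribosomal protein mRNAs, with a run of pyrimidines that couples their fate to translation. The starts below are shown to compare that feature, from 60 bases before to 25 bases from the RefSeq start onwards (GRCm38.p6, 5′ to 3′). The capitals mark the run of C or T that begins at the start and, further left, TGACGTCA, the palindromic cAMP response element.
Gas5, chr1:161035106-161035190, plus strand: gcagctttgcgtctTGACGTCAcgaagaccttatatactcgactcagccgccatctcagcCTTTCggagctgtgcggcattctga
Snhg12, chr4:132308618-132308702, plus strand: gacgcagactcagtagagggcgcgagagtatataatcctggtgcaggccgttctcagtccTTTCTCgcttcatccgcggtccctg
Snhg8, chr3:123508312-123508396, minus strand: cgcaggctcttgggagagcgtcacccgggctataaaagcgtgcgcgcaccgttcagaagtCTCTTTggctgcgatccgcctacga
Rps6, chr4:86857343-86857427, minus strand: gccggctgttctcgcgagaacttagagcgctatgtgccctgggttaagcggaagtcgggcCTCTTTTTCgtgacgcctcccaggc
Snhg11, chr2:158375653-158375737, plus strand: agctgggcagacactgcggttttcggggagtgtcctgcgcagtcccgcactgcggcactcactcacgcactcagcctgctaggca

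The run was 5 bases in this start of *Gas5*, 6 in *Snhg12* and in *Snhg8*, 9 in the ribosomal protein gene *Rps6* and 0 in *Snhg11*. It was 5 in *Snhg7*, 3 in *Snhg1* and 0 in *Snhg3* and *Snhg10*, and another start of *Gas5* had 0. Among the other long noncoding RNAs it was 6 in *Miat*, 2 in *Rian* and 0 in *Kcnq1ot1*. Of 32851 windows, 4.44% had a run of at least 5, 2.93% of at least 6 and 1.01% of at least 9. TGACGTCA stood at -46 in *Gas5* and at -57 in 1 of 2 starts of *Meg3*, and 1.79% of all windows of 250 bases before to 50 after a start held it. A window was at hand for 7 of the 8 genes. A match of letters is a description and no test of a factor. A snoRNA of *Gas5* follows, at chr1:162966813-162966872 on the plus strand of NCBIM37, again with its C and D boxes in capitals.
SNORD44 in Gas5: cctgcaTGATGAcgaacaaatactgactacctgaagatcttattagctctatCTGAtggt

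*Gas5* had 2522, 2906 and 1669 at P18, 5745, 4617 and 6316 at P75, 2659, 4470.05 and 3843 at 6 months, and 6419, 5349.9 and 4327 at 24 months. P75 and 24 months were high and overlapped, P18 and 6 months were lower, and 6mo replicate 1 lay within the P18 range. It rose 2.39-fold from P18 to P75 (log2 change 1.26 ± 0.21 SE, adjusted p = 1.73e-04) and fell by 0.62 on the log2 scale to 6 months (adjusted p = 0.0175). The rise of 0.57 from 6 to 24 months (adjusted p = 0.0619) came with overlapping libraries. The fall was lost without 6mo replicate 1 (adjusted p = 0.116), and the later rise without 6mo replicate 1 (0.35, adjusted p = 0.284), 24mo replicate 1 (0.227) or 24mo replicate 2 (0.142) and in DESeq2 (0.105). From P18 to 24 months *Gas5* rose by 1.201 (adjusted p = 8.94e-05).

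*Snhg11*, a host gene known mainly from neurons, had 7297, 7091 and 11535 at P18, 15327, 11513 and 11711 at P75, 9098, 7907 and 10544 at 6 months, and 19748, 19758 and 17528 at 24 months. The 24-month libraries were above all others, and P18 replicate 3 reached into the P75 range. It rose from P18 to P75 (log2 change 0.60 ± 0.17 SE, adjusted p = 0.00944), fell by 0.48 to 6 months (adjusted p = 0.0237) and rose 2.08-fold to 24 months (1.06, adjusted p = 0.00119). The fall was lost without P75 replicate 1 (adjusted p = 0.119) or 6mo replicate 2 (0.106). From P18 to 24 months the rise was 2.25-fold (1.17, adjusted p = 1.45e-05).

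The noncoding snoRNA hosts, 10 of which were tested with the 3 above included, fell together from P75 to 6 months and rose together to 24 months. All 10 fell in the former step, with a median log2 change of -1.07 beside 0.01 over all tested genes, and all 10 rose in the latter, with a median of 0.66 beside 0.03. Among the 7 hosts outside the 8 RNAs described here, 7 fell and then 7 rose. *Snhg10* fell by 1.52 (adjusted p = 4.04e-06) and then rose by 0.64 (adjusted p = 0.01998), with means of 112, 38.9 and 60.4. *Snhg6* fell by 1.47 (adjusted p = 4.88e-06) and rose by 0.65 (adjusted p = 0.0171). From P18 to P75, 4 of the 10 rose and 1 fell (7 and 0 after rescaling to the same total), and *Snhg8* was among the former (0.85, adjusted p = 0.00241). From P18 to 24 months 2 rose and 4 fell, where *Snhg11* and *Gas5* were the rises. These counts over the list describe it and were not tested against other genes.

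**Figure D3:**
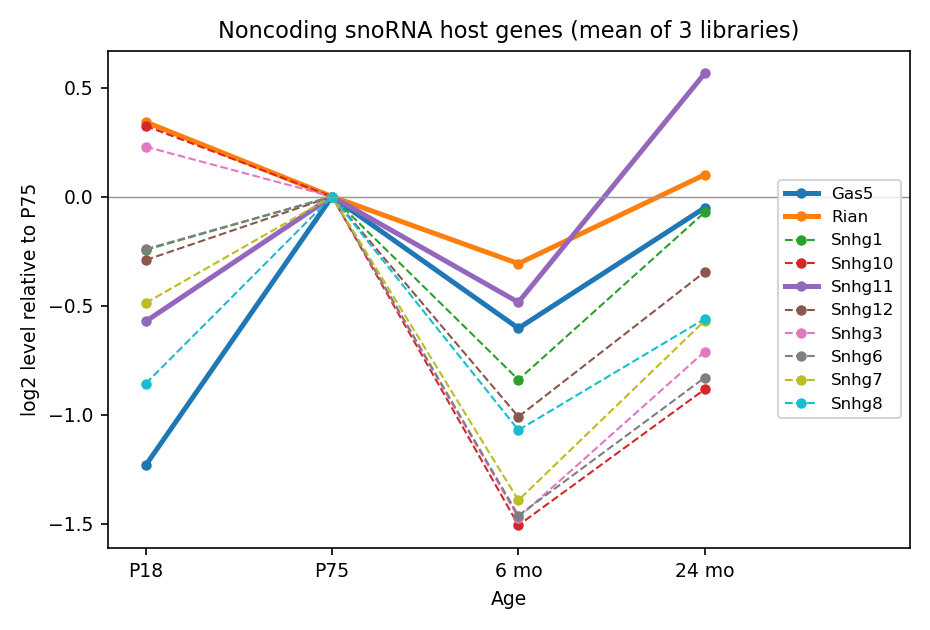
Log2 mean level of the 10 tested noncoding snoRNA host genes relative to P75 (vertical axis) at the 4 ages, each line the mean of 3 libraries; thick solid lines are *Gas5*, *Rian* and *Snhg11*, dashed lines the other 7. All 10 lines are below P75 at 6 months and higher again at 24 months, and *Snhg11* ends highest.

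Ribosomal protein genes, whose mRNAs carry pyrimidine-rich starts, were counted beside the hosts; they have many near-identical copies, so single values are uncertain. Of 81 tested, 63 rose and 3 fell from P18 to P75, 1 rose and 77 fell to 6 months, and 43 rose and 0 fell to 24 months, with medians of 0.62, -0.87 and 0.42. *Gas5*, *Snhg11* and *Neat1*, which is no snoRNA host, had the sign of that median in each of the 3 steps. Their part in the counts of the hosts, or a shared cause, was not tested.

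In each comparison the 8 RNAs were read against all genes tested. The shares of all genes given here are the background for the counts of the other gene lists as well. From P18 to P75, 5 of the 8 changed (*Neat1*, *Snhg11* and *Gas5* up, *Malat1* and *Rian* down), beside 48.8% of all genes called, 25.9% higher and 22.9% lower. From P75 to 6 months, 5 changed (*Miat* up, *Neat1*, *Rian*, *Snhg11* and *Gas5* down), beside 60.6%, with 31.2% higher and 29.4% lower. Without 6mo replicate 1 the count was 2, while the number of all genes called went from 8865 to 7708. From 6 to 24 months, 7 changed and all 7 rose, *Malat1* being the exception, beside 29.3% of all genes called, 16.6% higher and 12.7% lower. Without 24mo replicate 2 that count was 4, while the number of all genes called went from 4287 to 2492. With rescaling to the same total it was 5, beside 3008 of all genes, 1394 higher and 1614 lower. From P18 to 24 months all 8 changed, 6 up and 2 down, beside 69% of all genes, 34.7% higher and 34.3% lower. The libraries of the ages compared did not overlap for 4, 5, 6 and 8 of the 8, beside 47.7%, 63.1%, 43.5% and 66.6% of all genes, in the same order. The comparisons share libraries and are not independent of each other.

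The direction of all genes depended on scale. From P18 to P75, 3783 genes rose and 3354 fell, but 4739 and 1827 after rescaling to the same total, which moved the median log2 change from 0.02 to 0.14, and 3235 and 3884, with a median of -0.03, when the 10 myelin markers were left out of the total. From 6 to 24 months 2435 rose and 1852 fell, against 1394 and 1614 after the former rescaling and 1856 and 2164 after the latter. No log2 change of the 8 changed sign under these scalings.

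**Figure D4:**
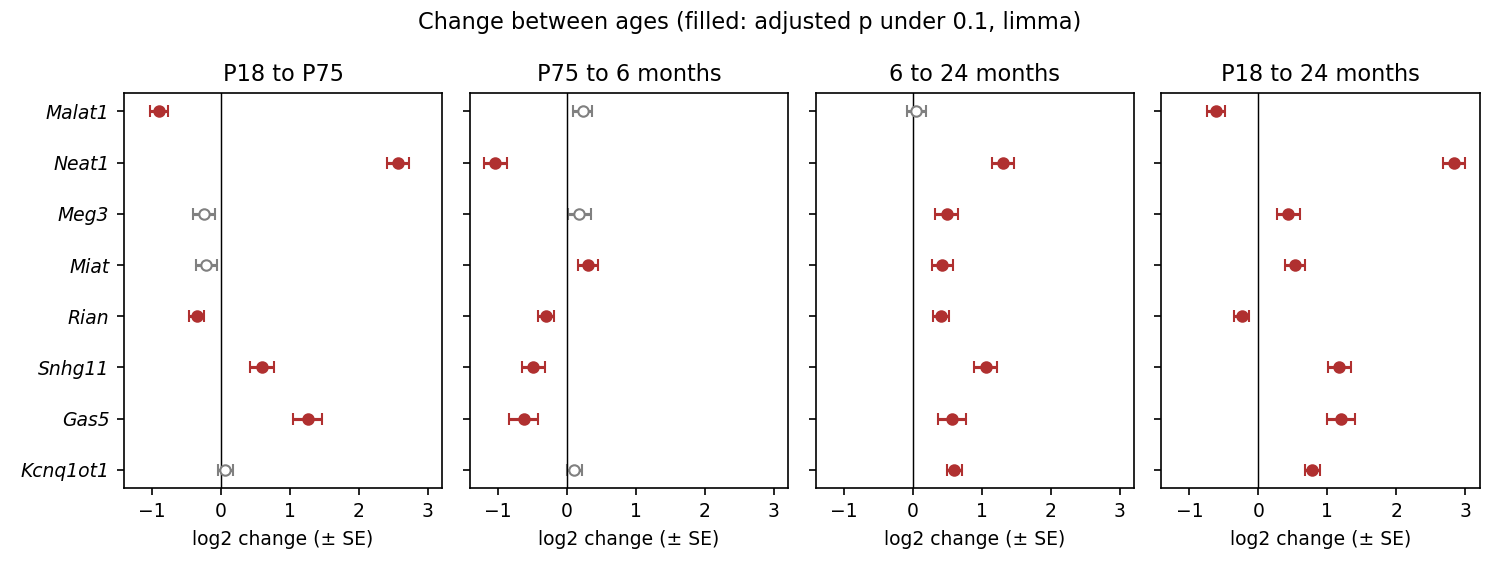
Log2 change of each RNA (horizontal axes, ± SE from the limma fit) between the ages named above each panel; filled points had an adjusted p under 0.1. *Neat1* had the largest change in each panel, 2.56, -1.03, 1.31 and 2.84, and in the panel from 6 to 24 months only *Malat1* was not called.

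Per kilobase of merged exon, the level of *Rian* was 1851, 1460.4, 1180.1 and 1566 from the youngest to the oldest age, and that of *Snhg11* was 1014, 1508, 1078 and 2231. *Gas5* had 629, 1479, 973 and 1427, and *Meg3* had 731, 621, 698 and 977. These were the 4 highest means of the 7 RNAs with an annotated length at every age. *Malat1* had 603, 328, 379 and 393 per kilobase, *Miat* 171, 151, 184 and 246, and *Neat1* 15.3, 90.1, 43.7 and 109.6. The median of 14272 genes was 113 to 121, so the mean of *Neat1* was below the median gene at every age, within its SD at 24 months, and the means of the other 6 were above it. At P18 *Meg3*, *Gas5* and *Malat1* lay within each other's spread, as did *Snhg11*, *Gas5* and *Rian* at P75 and at 6 months, and *Rian* and *Gas5* at 24 months. The reads of *Neat1* were divided by its long form of 20771 bases. The annotation that reads were counted on is not given, and it held *Kcnq1ot1*, which the annotation used here lacks. The length counted may therefore differ from the length used, and the place of *Neat1* below the median gene depends on that length. With the shortest annotated transcript of each gene, a choice made after the data were seen, the levels at P18 were 2097 for *Neat1*, 31429 for *Meg3*, 15342 for *Rian*, 12578 for *Snhg11*, 8684 for *Malat1*, 6837 for *Gas5* and 171 for *Miat*. Those transcripts had 152 bases for *Neat1*, 346 for *Gas5*, 421 for *Meg3*, 485 for *Malat1*, 687 for *Snhg11* and 989 for *Rian*. *Miat* has only 1 annotated transcript, of 8760 bases. The order of the genes therefore depends on how short these annotated transcripts are. On those lengths *Neat1* was above *Miat* alone at P18, but its place was higher at the later ages. At 24 months it had 14980, above *Rian* (12975.5), *Malat1* (5659) and *Miat* (246). It was then below *Gas5* (15507.5), *Snhg11* (27673) and *Meg3* (41976). Which form was present is not shown by gene totals.

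**Figure D5:**
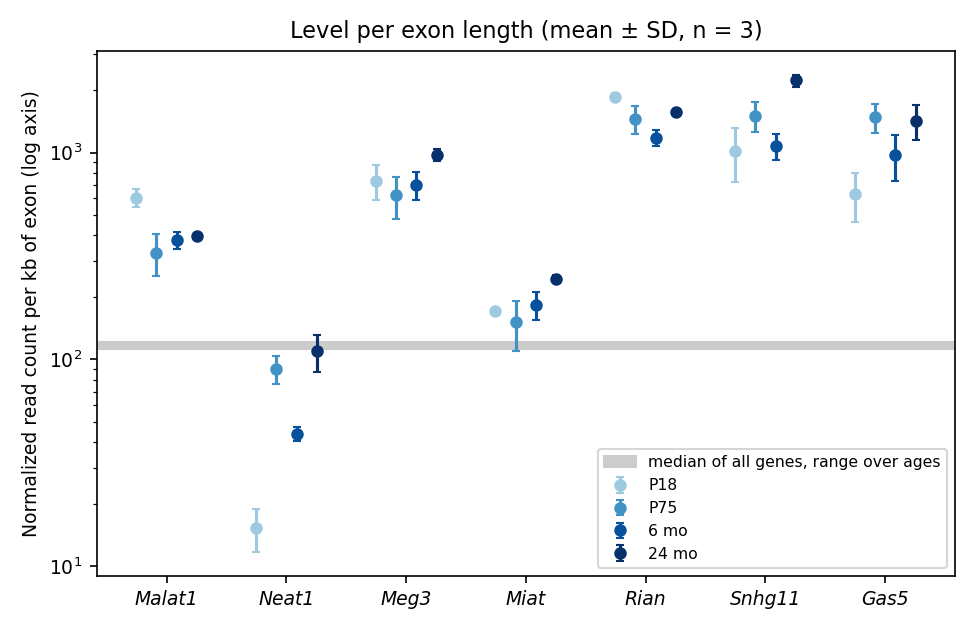
Normalized read count per kilobase of merged exon (vertical axis, log scale) of 7 long noncoding RNAs; points are means and bars the SD of 3 libraries at each age, and the grey band is the range over ages of the median of 14272 genes, 113 to 121. The means of *Neat1*, from 15.3 to 109.6, lie below the band and those of the other RNAs above it.

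Among other long noncoding RNAs, 16 tested genes of a list of named ones gave 3 rises and 1 fall from P18 to P75, 1 and 7 to 6 months, and 3 and 1 to 24 months. 2900097C17Rik was the most abundant of that list, with 43583 ± 4625 (SD, n = 3) at P18 and 21205 ± 542 at 24 months (log2 change -1.03, adjusted p = 1.0e-06). *Peg13*, an imprinted RNA, rose from P75 to 6 months (0.54, adjusted p = 1.67e-04) and fell to 24 months (-0.50, adjusted p = 0.00293). The annotation types 192 tested genes as long noncoding, and these include *Malat1*, *Neat1*, *Meg3*, *Miat*, *Rian* and *Gas5*. Of the 192, 34 rose and 31 fell from P18 to P75 (54 and 22 after rescaling to the same total). To 6 months 15 rose and 98 fell (13 and 96 after that rescaling), and to 24 months 50 rose and 3 fell (34 and 2). From P18 to 24 months 33 rose and 78 fell. The largest rises among the called genes of that type with a mean of at least 100 were 4930581F22Rik (3.61, from 16.6 to 213), *Neat1* and A330023F24Rik (2.01, from 271 to 1098). The largest falls were R74862 (-1.52, from 269 to 93.0), 1810058I24Rik (-1.497, from 1046 to 369) and Gm2694 (-1.49, from 474 to 167).

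The genes whose levels ran most like each RNA are given as a description, by Pearson's r on log2(value + 1) over the 12 libraries among 11305 genes. The libraries share their ages, so r mostly reflects the course over 4 ages. *Neat1* ran most like *Lbr* (0.984), *Fkbp2* (0.968) and *Mgst1* (0.967), and *Malat1* like *Nav2* (0.958), *Nckap5l* (0.939) and *Evl* (0.929). *Gas5* ran most like *Pfdn5* (0.987), *Eef1b2* (0.984) and *Use1* (0.983), where *Eef1b2* encodes a translation elongation factor. For *Snhg11* these were *Sfi1* (0.971), *Luc7l3* (0.968) and *Clk1* (0.950), where *Luc7l3* encodes a splicing factor. *Kcnq1ot1* ran most like *Irf9* (0.972), *Cd68* (0.956) and *C1qc* (0.950), and the latter pair are genes of macrophages and microglia. For *Rian* they were *Tmem223* (0.945), *Inha* (0.905) and *Lysmd4* (0.894). *Meg3* ran like *Ssh3* (0.915), Gm6300 (0.910) and *Miat* (0.900), and *Miat* like *Ssh3* (0.920), *Col6a2* (0.912) and *Recql5* (0.906).

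Libraries of 1 age differed in ways that several of the RNAs shared. P75 replicate 1 was the highest of its age for *Malat1*, *Meg3*, *Miat*, *Rian* and *Snhg11*, and P75 replicate 3 the lowest for *Malat1*, *Meg3* and *Miat*. At 6 months replicate 2 was the lowest for *Malat1*, *Meg3*, *Miat* and *Snhg11*, P18 replicate 3 was the highest for *Malat1*, *Neat1*, *Meg3*, *Snhg11* and *Kcnq1ot1*, and 24mo replicate 3 was the lowest for *Malat1*, *Neat1*, *Rian*, *Snhg11* and *Gas5*. The share of reads on *Mbp* had no fixed order beside these. It was highest of its age in P75 replicate 1 (7.03% against 5.06% and 4.76%) and in 6mo replicate 2 (8.48% against 5.14% and 5.34%), and lowest of its age in P18 replicate 3 (9.47% against 15.1% and 20.8%) and in 24mo replicate 3 (5.34% against 7.52% and 6.33%). The part of the *Mbp* share in these differences was not tested.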

How the data were processed

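The deposited values are normalized read counts, a signal that the authors made by aligning reads to mm9 with TopHat, counting them on genes with HTSeq and dividing by DESeq size factors. The submitters' processing notes name TopHat2 2.0.8, SAMtools 0.1.19 and HTSeq 0.5.4p1. RNA selection, strandedness and the counting annotation are not given in the sources used here. Values divided by that of 1 read were whole, within 0.02, for at least 99.99% of values per library, which gave the depth.

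Ages were compared with limma 3.58.1 (trend, empirical Bayes; R 4.3.3) on log2(value + 1) for genes averaging at least 10, fitted together over the 12 libraries, and called at an adjusted p under 0.1 (Benjamini-Hochberg over 14634 genes). A fold change on this scale understates the change of low genes. Ratios used an exact permutation test. Alternatives were other pseudocounts, filters and scalings, a fit of 2 ages, a replicate block, edgeR 4.0.16 and DESeq2 1.42.0 on recovered reads, an adjusted p under 0.05, and each library left out. In the order P18 to P75, P75 to 6 months, 6 to 24 months and P18 to 24 months, limma called 7137, 8865, 4287 and 10092 genes, edgeR 7080, 8948, 4585 and 10089, and DESeq2 6799, 8631, 4354 and 9822. Leaving the myelin markers out of the scaling total and the shortest transcript length were added after the data were seen. On simulated data for P18 to P75, limma recovered 100% of 200 genes changed 3-fold among 14634, with 33 unchanged genes called. Simulated counts need not share the spread of the measured libraries, and recovery of changes under 3-fold was not tested. Among the long noncoding RNAs described here, only *Neat1* changed by more than 3-fold, from P18 to P75 (5.91-fold) and from P18 to 24 months (7.14-fold). The simulation therefore gives no recovery rate for their other calls.

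The rule for the 8 RNAs names symbols and uses no threshold on values, but the symbols and the gene lists were chosen with earlier results of these data known. Named were the 8, genes of hand-written lists (imprinted loci, snoRNA hosts, other noncoding RNAs, nuclear body and splicing proteins, cell type markers), ribosomal protein genes by symbol (kinases named Rps6k left out), the 3 largest rises and falls among noncoding genes of GENCODE vM1, and the 3 genes of highest r with each RNA. Promoter windows are from RefSeq. The replicate numbers may pair P75 with 6 months, since same-numbered libraries deviated together (r = 0.161, 0.101 and 0.187 across genes) while no label names a shared animal or batch. The block changed the call of none of the 8 RNAs.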

Additional observations from a re-analysis of the deposited data

How the results depend on the processing

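Of the log2 changes of the 8 RNAs, 338 kept direction and side of the threshold under the alternatives other than leaving out a library and 14 lost their call. Without 1 library 352 kept both, 27 lost their call, 4 gained one and 1 reversed, *Malat1* from 6 to 24 months without 6mo replicate 2 (-0.011, with 0.126 as the highest value without a library); causes were not tested. Leaving out 1 library gave 5 to 7, 2 to 5, 4 to 7 and 6 to 8 of the 8 called from P18 to P75, P75 to 6 months, 6 to 24 months and P18 to 24 months, and 6233 to 7325, 7708 to 9467, 2478 to 5323 and 9293 to 10152 of all genes. The lowest count of genes from 6 to 24 months came without 6mo replicate 1. At an adjusted p under 0.05, 2856 genes changed from 6 to 24 months against 4287, a stricter limit by construction. The ratio spans were 3.37 to 3.69 for *Neat1* to *Malat1* and 0.57 to 0.85 for *Meg3* to *Rian*. With the replicate block, 5, 5, 7 and 8 of the 8 and 6968, 8695, 3996 and 10005 genes were called, and the *Meg3* to *Rian* span of 0.67 no longer passed (exact permutation test, p = 0.0747). Same-numbered libraries did not deviate together in the other comparisons, with r of -0.151 to -0.026, -0.213 to -0.060 and -0.051 to 0.029, and each library deviated most like its own number in 6 of 6 from P75 to 6 months. The spread between libraries was no larger than counting alone gives for *Kcnq1ot1* at P75 (CV 3.09% against 4.76%) and *Miat* at P18 (2.14% against 2.72%), and close to it for *Kcnq1ot1* at 6 months (4.94% against 4.31%).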
